A study of Mus musculus with 6 samples.

Results

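The replication-dependent histone genes are the copies of the linker histone H1 and of the core histones H2A, H2B, H3 and H4 that dividing cells use to package newly made DNA. They were taken as every row of the gene count table whose name starts with Hist1h, Hist2h, Hist3h or Hist4h, which gave 67 of 13932 genes. By class these were 6 H1, 17 H2a, 19 H2b, 12 H3 and 13 H4 genes, and by cluster 54 lay in Hist1, 9 in Hist2, 3 in Hist3 and 1 in Hist4. The annotation called 65 of them protein-coding and 2, Hist2h3c2 and Hist3h2bb-ps, pseudogenes.

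RNA was sequenced from common myeloid progenitors, bone marrow cells that give rise to granulocytes, monocytes, red cells and platelets, taken from mice that had received transgenic donor marrow. In the S34F group the donors carried U2AF1(S34F)/rtTA, and in the WT group U2AF1(WT)/rtTA. U2AF1 is the subunit of a splicing factor that reads the AG at the end of an intron, and S34F is a mutation of it seen in myelodysplastic syndromes. Both groups carried the rtTA transactivator, were left to engraft for more than 6 weeks and ate doxycycline chow for 5 days. Donor cells were sorted as Lineage-, c-Kit+, Sca-1-, CD34+ and Fcgamma-, each library was a pool of marrow from 4 to 5 mice, and there were 3 libraries per genotype. The genotype field of the labels reads S34F for all 6 samples, so groups were taken from the sample titles.

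Replication-dependent histone mRNAs are made in S phase, when NPAT gathers their transcription machinery at the histone gene clusters. Nearly all lack introns and end in a short stem-loop instead of a poly(A) tail. The stem-loop is bound by SLBP, which takes part in 3′ end cutting, translation and the removal of these mRNAs when replication stops. Because ribosomal RNA was depleted and no poly(A) selection is named in the labels, mRNAs without a tail were not selected against.

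The stem-loops are printed here for H4 genes and for a gene of each other class, because they show one feature that follows the class. A stem-loop matching the histone consensus was searched in the 100 bases after the stop codon in the mm9 genome. It was found in 61 of the 65 members with an annotated stop (93.8%), 22 to 59 bases after it. Among all 21964 annotated genes with a stop codon, members included, 84 had it (0.382%), and 23 of these were not members. No stem-loop was found in that window for Hist1h2al, Hist1h2an, Hist2h2bb and Hist2h2be. Capitals mark the paired arms of the stem, lower case between them the loop, and 5 flanking bases stand on each side. The first 5 genes are H4 genes and the other 4 stand for H1, H2a, H2b and H3.
Hist1h4c: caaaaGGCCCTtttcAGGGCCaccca
Hist1h4d: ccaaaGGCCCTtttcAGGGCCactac
Hist1h4f: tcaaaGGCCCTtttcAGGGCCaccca
Hist1h4j: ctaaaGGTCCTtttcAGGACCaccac
Hist2h4: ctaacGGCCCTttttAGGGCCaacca
Hist1h1c: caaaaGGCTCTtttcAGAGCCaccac
Hist2h2ab: aaaaaGGCTCTtttaAGAGCCaccaa
Hist1h2bb: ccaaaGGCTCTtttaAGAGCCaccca
Hist1h3f: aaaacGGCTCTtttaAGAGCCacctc
Without the flanks, the Hist1h4c stem-loop lies at chr13:23789958-23789973 on the minus strand and that of Hist1h2bb at chr13:23839072-23839087 on the plus strand. The first arm was GGCTCT in all 48 stem-loops of H1, H2a, H2b and H3 genes. It was GGCCCT in 11 of the 13 H4 genes and GGTCCT in the other 2, Hist1h4b and Hist1h4j.

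Promoters were also compared by class, and those of Hist1h4c and Hist1h2bb, the genes with the lowest unadjusted p among H4 and H2b genes, are shown. RefSeq's table for the GRCm38.p6 assembly held 250 bases before to 50 bases after the start of 59 of the 67 genes. Capitals mark the letters CCAAT (a box bound by NF-Y), ATTTGCAT (the octamer bound by Oct-1 at H2B genes) and TATAAA (bound by the TATA-binding protein) on either strand, so that ATTGG is a CCAAT on the other strand. Each motif was counted whether or not it overlapped another. The promoters lie at chr13:23698409-23698708 on the minus strand and chr13:23746484-23746783 on the plus strand.
Hist1h4c: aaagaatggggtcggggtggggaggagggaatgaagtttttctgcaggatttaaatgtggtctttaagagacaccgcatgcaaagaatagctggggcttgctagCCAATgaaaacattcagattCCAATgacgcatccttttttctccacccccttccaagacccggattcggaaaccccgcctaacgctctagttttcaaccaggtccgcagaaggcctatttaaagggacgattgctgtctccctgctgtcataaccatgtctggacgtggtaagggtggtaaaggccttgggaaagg
Hist1h2bb: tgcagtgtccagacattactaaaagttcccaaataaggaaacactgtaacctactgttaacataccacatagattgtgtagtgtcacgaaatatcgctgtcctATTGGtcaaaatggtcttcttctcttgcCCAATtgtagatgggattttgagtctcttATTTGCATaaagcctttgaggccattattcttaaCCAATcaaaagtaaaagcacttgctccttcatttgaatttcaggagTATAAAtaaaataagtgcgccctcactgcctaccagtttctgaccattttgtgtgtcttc
CCAAT stood in the promoters of all 6 H1, 15 H2a, 16 H2b and 10 H3 genes matched, but in 3 of 12 H4 genes (25%), against 37.4% of all 32851 promoters in the table. The octamer stood in 6 of 15 H2a and 6 of 16 H2b promoters and in no H1, H3 or H4 promoter, against 1.74% of all promoters. TATAAA stood in 33 of the 59 (55.9%), against 13.6% of all promoters. The Hist1h4c promoter shown holds CCAAT but no TATAAA, which stood in 8 of 12 H4 promoters, so it is not typical of its class.

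The gene table held 46827909 to 51862032 counts per S34F library and 54727541 to 94562984 per WT library. The mouse U2af1 row, which does not read the mutant base and so cannot check the labels, stood at 119, 136 and 122 counts per 1000000 (CPM) in the S34F libraries and 105, 125 and 128 CPM in the WT libraries. The Y-linked gene Ddx3y was counted in replicate 1 of both genotypes (5714 and 5580 counts) and at 0 in the other 4 libraries. Xist, an RNA of female cells, had 1 and 5 counts in replicate 1 and 67264 to 128694 in the other 4. By these genes replicate 1 of both genotypes read as male and the others as female. Leaving out both replicate 1 libraries therefore also leaves out the libraries that read as male. Of 8 progenitor markers, 7 were measured, with a summed level of 6737 to 8300 CPM in S34F and 5452 to 9055 CPM in WT libraries. Summed markers of dendritic cells and monocytes (9 of 9 measured) ran from 587 to 842 CPM in S34F and 942 to 1114 CPM in WT, and those of megakaryocytes (6 of 6) from 87.8 to 117 and from 127 to 173 CPM, with no marker of either list at 0. Of the 9, Csf1r (means of 138 CPM in S34F and 135 CPM in WT), Ly6c2 (211 and 216 CPM) and Cd74 (10.5 and 42.5 CPM) overlapped between genotypes. The others of that list were lower in each S34F library than in any WT library. Among the megakaryocyte markers only Itga2b was. Mitochondrial transcripts took 2.44 to 2.77% of S34F and 1.27 to 2.04% of WT counts, and 7SK RNA took 2.01 to 2.49% of S34F and 2.74 to 3.16% of WT counts. The part of these differences in the histone values was not tested.

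Levels below are CPM of the library size scaled by edgeR's TMM factors, and folds are log2 ratios of S34F over WT. Summed over the 67 genes, the level was 12667, 14180 and 15661 CPM in S34F replicates 1 to 3, against 16395, 15605 and 16628 CPM in WT replicates 1 to 3. S34F replicate 3 lay just above the lowest WT library, so the groups overlapped, and the S34F mean was 87.4% of the WT mean (log2 ratio -0.19). As a share of all counts, histone mRNA made up 1.28, 1.40 and 1.57% in S34F libraries and 1.65, 1.56 and 1.65% in WT libraries. In such bulk samples, fewer cells in S phase and less histone mRNA per cell cannot be told apart.

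Of the 5 classes, the H4 genes had the lowest ratio of S34F to WT, although the difference between classes was not tested. Their summed level was 2467, 3122 and 2948 CPM in S34F libraries, against 3657, 3616 and 4025 CPM in WT libraries. Every S34F library lay below every WT library, and the S34F mean was 75.6% of the WT mean (log2 ratio -0.40). H4 mRNA also took a smaller part of the histone counts themselves, a measure that needs no scaling between libraries: 19.5, 22.02 and 18.8% in S34F and 22.3, 23.2 and 24.2% in WT. The log2 ratio of the H4 sum stayed between -0.48 and -0.31 when each library was left out in turn, and was -0.33 without both replicate 1 libraries and -0.40 with mitochondrial genes and 7SK left out of the library size.

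**Figure D1:**
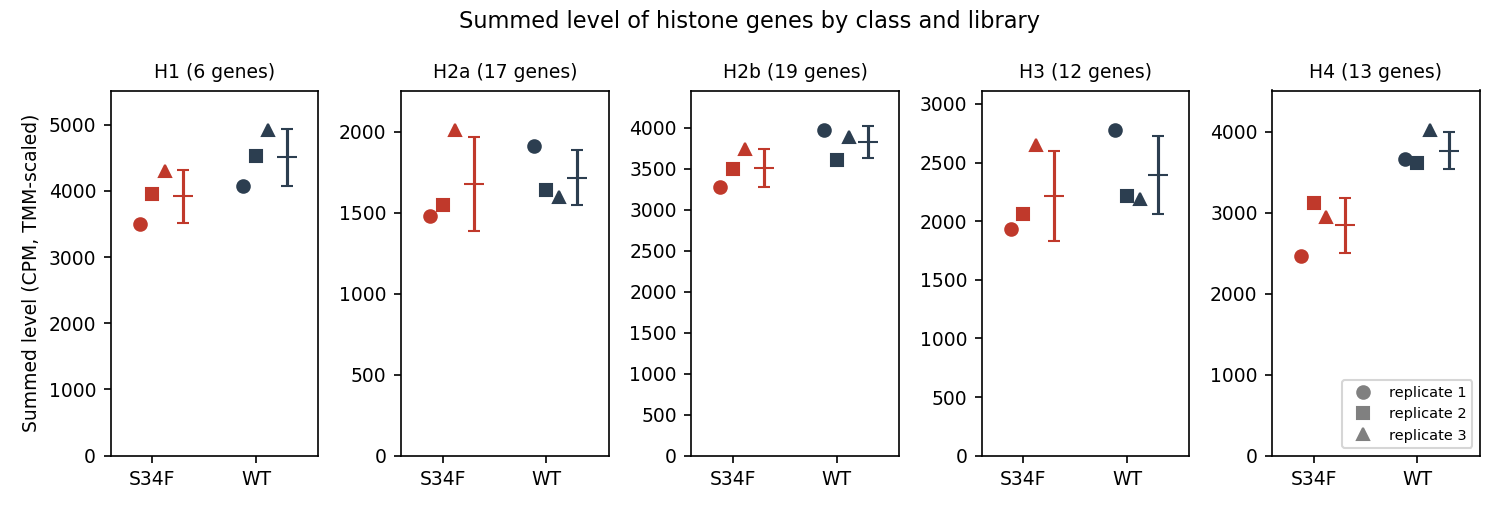
Summed level of each histone class (CPM, vertical axes from 0, one scale per panel) in the 3 S34F and 3 WT libraries; symbols give the replicate number, and the bar beside them the mean and SD. The S34F and WT libraries are apart for H4 (2467 to 3122 CPM against 3616 to 4025 CPM) and overlap for the other classes.

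The other classes overlapped between genotypes. H1 sums were 3506, 3957 and 4304 CPM in S34F and 4068, 4522 and 4926 CPM in WT (log2 ratio -0.20). H2b sums were 3279, 3494 and 3743 CPM in S34F and 3976, 3612 and 3886 CPM in WT (log2 ratio -0.13). The S34F mean was below the WT mean in both classes, with S34F replicate 3 inside the WT range. H2a sums were 1482, 1548 and 2015 CPM in S34F and 1913, 1643 and 1599 CPM in WT (log2 ratio -0.03). H3 sums were 1933, 2060 and 2652 CPM in S34F and 2781, 2213 and 2192 CPM in WT (log2 ratio -0.11). For H2a and H3 the highest libraries were S34F replicate 3 and WT replicate 1, and the sign turned without both replicate 1 libraries, to 0.14 for H2a and 0.10 for H3. Without WT replicate 1 alone the ratios were 0.05 for H2a and 0.01 for H3.

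Gene by gene, all 67 members passed the filter on low counts, 49 had a log2 fold change below 0 and 18 above, and their median was -0.14. Over all 13905 genes tested, 50.9% lay below 0 and the median was -0.01. edgeR's quasi-likelihood test with Benjamini-Hochberg adjustment called 0 members at adjusted p under 0.05, as it called 0 of all genes (0%). At an unadjusted p under 0.05 it had 10 members lower in S34F, against a background of 4.7% of genes lower, and 0 higher, against 4.39% higher (9.1% in either direction). DESeq2 called 1 member, Hist1h4c, lower (background 0.445% lower and 0.689% in either direction), with 13 members at an unadjusted p under 0.05. The 3 S34F values lay below the 3 WT values for 9 members (background 8.47%) and above them for 0 (background 7.16%). Of the 13 H4 genes, 12 lay below 0 with a median of -0.40, 7 were among the 10 and 6 among the 9. Of the other 54 genes, 37 lay below 0 with a median of -0.12, and 3 were in each of these counts.

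Replicate 1 bore on these counts. Without both replicate 1 libraries, 31 members lay below 0 and 36 above, with a median of 0.01, while 11 of the 13 H4 genes still lay below 0, with a median of -0.25. Without WT replicate 1 alone, edgeR called 1172 of all genes (8.42%, with 1.7% lower) and 6 of the 67 members, a share close to that of all genes. The 6 were Hist2h4, Hist1h4c and Hist1h4f, which were lower in S34F, and Hist1h3d, Hist1h3i and Hist1h2ak, which were higher. Without both replicate 1 libraries it called 3 of the 67 members, again a share close to the 4.3% of all genes: Hist2h4 lower, and Hist1h3d and Hist1h3i higher.

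**Figure D2:**
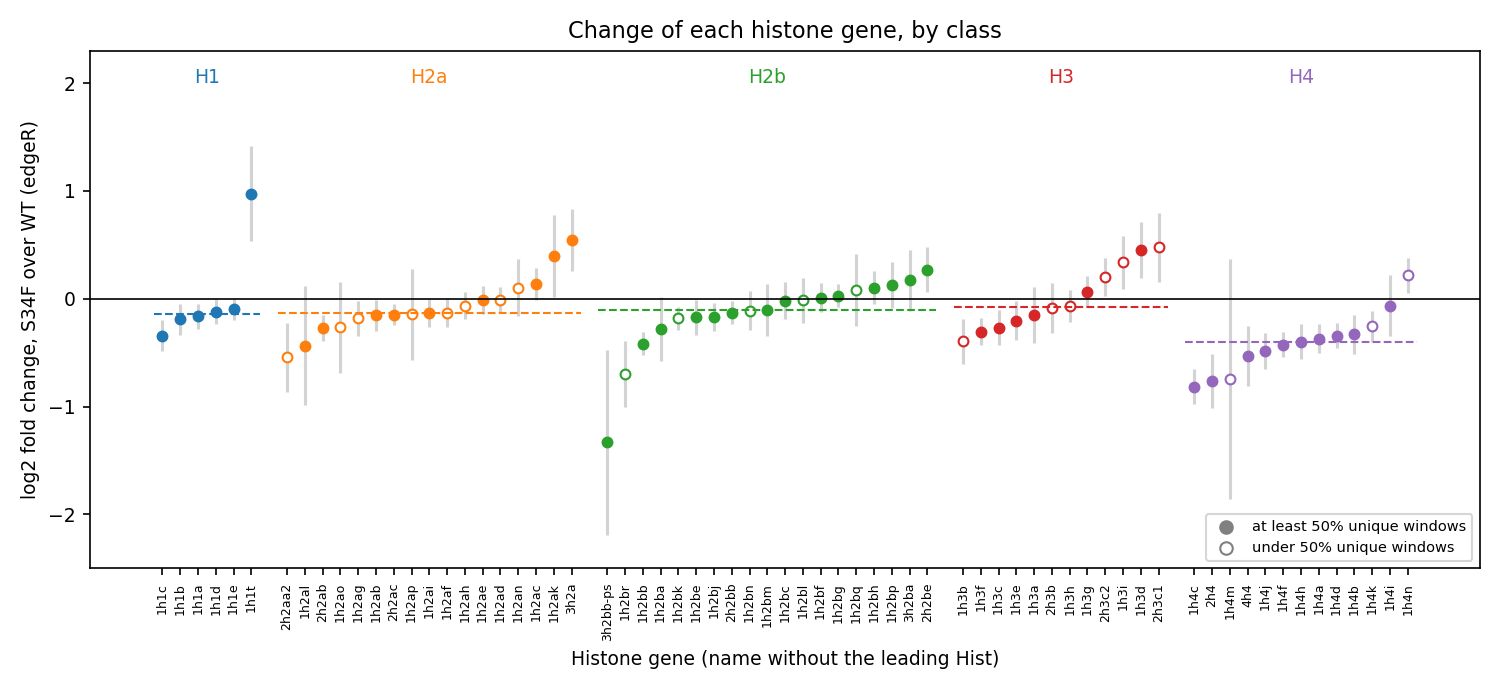
Log2 fold change (S34F over WT, edgeR) of each of the 67 histone genes, ordered within its class, with its standard error as a grey bar; dashed lines are class medians and open circles are genes with under 50% of read-length windows unique in the genome. Of the 13 H4 genes 12 lie below 0, with the dashed line at -0.40.

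Histone H4 forms, with H3, the tetramer at the centre of the nucleosome, and its genes encode the same or nearly the same protein. Hist1h4c, at chr13:23789929-23790323 on the minus strand, had 222, 332 and 243 CPM in S34F libraries, against 503, 443 and 455 CPM in WT libraries. Each S34F value was below each WT value. Its log2 fold change was -0.81 ± 0.16 (SE, n = 3 each), with an adjusted p of 0.373 in edgeR and 0.00145 in DESeq2. In the authors' deposited table its log2 fold change was -0.67 with an adjusted p of 0.00159, and it was the 1 member past 0.05 there, against 0.63% of all genes with an adjusted p. Without WT replicate 1, edgeR's adjusted p for Hist1h4c was 0.0391, in a fit that called 8.42% of all genes. With any other single library left out, the lowest adjusted p of a member was 0.263. Hist1h4c was also not called without both replicate 1 libraries.

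The 3 other H4 genes of highest mean CPM had S34F values below all WT values as well, and none passed edgeR's adjusted threshold with all 6 libraries. Hist1h4d had 568, 665 and 669 CPM in S34F and 736, 785 and 892 CPM in WT (log2 fold change -0.34 ± 0.12, adjusted p 0.538). It is the histone gene with the highest level per length of all 67, at 1830 CPM per kb of exon over the 6 libraries. Hist1h4f had 365, 383 and 435 CPM in S34F and 480, 516 and 593 CPM in WT (-0.42 ± 0.12, adjusted p 0.538, and 0.0426 without WT replicate 1). Hist1h4f was not called with any other single library, or with both replicate 1 libraries, left out. Hist1h4h had 350, 541 and 476 CPM in S34F and 612, 561 and 630 CPM in WT (-0.40 ± 0.16, adjusted p 0.548).

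Outside the Hist1 cluster there are 2 H4 genes. Hist4h4, alone on chromosome 6 at chr6:136752589-136752900, had 79.2, 102 and 119 CPM in S34F and 122, 102 and 211 CPM in WT. The groups overlapped, WT replicate 3 stood apart from the other WT libraries, and the log2 fold change was -0.53 ± 0.28 (adjusted p 0.574). Hist2h4, chosen after its values were seen, had 35.7, 29.3 and 41.0 CPM in S34F and 39.2, 62.0 and 78.5 CPM in WT (-0.76 ± 0.25, adjusted p 0.538). Its WT replicate 1 lay among the S34F values, and without that library the log2 fold change was -0.99 with an adjusted p of 0.0173. With any other single library left out, Hist2h4 was not called. The 1 H4 gene above 0 was Hist1h4n (0.22 ± 0.16), a near-identical copy of Hist1h4m.

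**Figure D3:**
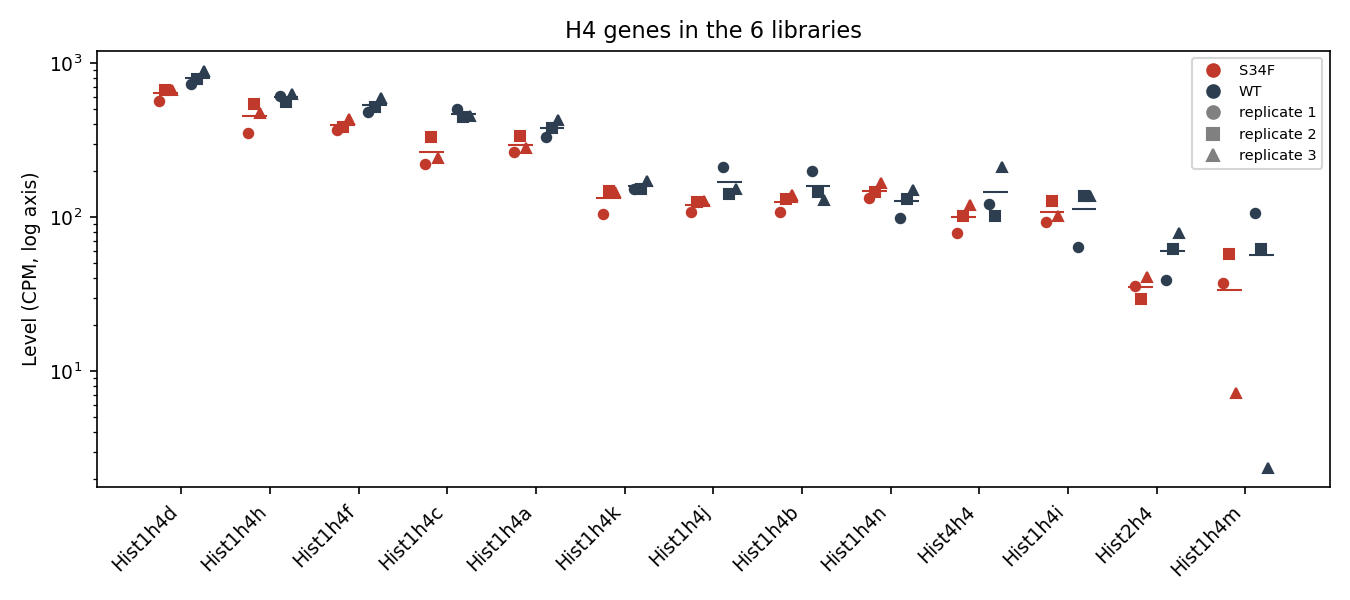
Level (CPM, log axis) of the 13 H4 genes in each S34F (left) and WT (right) library, with horizontal lines at the means, ordered by mean level. Hist1h4d, Hist1h4h, Hist1h4f and Hist1h4c have all 3 S34F values below the WT values, and replicate 3 of both genotypes is low for Hist1h4m.

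H1 histones bind the linker DNA between nucleosomes, and 5 of the 6 H1 genes were among the 12 histone genes of highest mean CPM. Hist1h1c had 951, 1127 and 1280 CPM in S34F and 1245, 1419 and 1589 CPM in WT, with 1 S34F library inside the WT range (log2 fold change -0.34 ± 0.14, adjusted p 0.548). Hist1h1a had 726, 732 and 811 CPM in S34F and 739, 859 and 941 CPM in WT (-0.16 ± 0.12). Hist1h1d had 780, 912 and 977 CPM in S34F and 900, 986 and 1014 CPM in WT (-0.12 ± 0.12). These ranges overlapped, and neither gene had an unadjusted p under 0.05. Hist1h1b had 468, 538 and 539 CPM in S34F and 493, 581 and 691 CPM in WT (-0.19 ± 0.14). Hist1h1e had 580, 646 and 694 CPM in S34F and 690, 675 and 690 CPM in WT (-0.10 ± 0.10). All 5 log2 fold changes kept a sign below 0 when each library was left out in turn. The sixth gene, Hist1h1t, which encodes the testis linker histone and was chosen after its values were seen, was at 1.42 to 3.84 CPM in S34F and 0.94 to 1.44 CPM in WT (0.97 ± 0.44, adjusted p 0.557).

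H2A and H2B pair as dimers on either face of the nucleosome, and many of their genes sit head to head. Among H2b genes the lowest p was that of Hist1h2bb, with 452, 432 and 523 CPM in S34F and 610, 611 and 659 CPM in WT. All S34F values lay below all WT values (log2 fold change -0.42 ± 0.11, unadjusted p 0.0049, adjusted p 0.538). Hist1h2bg, the third of this class by mean CPM, had 496, 483 and 537 CPM in S34F and 471, 468 and 549 CPM in WT (0.03 ± 0.10). Hist2h2bb, the gene of highest mean CPM in the Hist2 cluster, had 480, 495 and 525 CPM in S34F and 487, 578 and 579 CPM in WT (-0.13 ± 0.11). Both overlapped between genotypes. Hist3h2bb-ps, an annotated pseudogene chosen after its values were seen, had 2.56, 3.39 and 0.91 CPM in S34F, against 0.60, 9.43 and 7.16 CPM in WT, where replicate 1 stood apart (-1.33 ± 0.86, adjusted p 0.622).

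The H2a genes gave 13 members below 0 and 4 above, with no unadjusted p under 0.05. Hist2h2ab, of lowest p in the class, had 13.4, 15.3 and 14.9 CPM in S34F and 17.8, 18.03 and 16.7 CPM in WT, without overlap (log2 fold change -0.27 ± 0.12, adjusted p 0.552). Its exon overlaps an exon of Gm15444 on the opposite strand. Hist3h2a, the gene of highest mean CPM in the small Hist3 cluster, had 15.5, 12.1 and 15.7 CPM in S34F and 6.34, 14.3 and 8.93 CPM in WT (0.55 ± 0.29, adjusted p 0.578). WT replicate 2 lay inside the S34F range. The gene's exon overlaps an exon of Trim17 on the same strand, so that reads of both genes may be shared. Hist1h2al, chosen after its values were seen, was at 13.7 CPM in S34F replicate 1 and at 75.5 and 86.9 CPM in S34F replicates 2 and 3, against 86.9, 80.7 and 70.5 CPM in WT. It lies apart from the other Hist1 genes, at chr13:51298057-51298434.

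H3 histones carry many of the modifications of chromatin, and their genes gave 7 members below 0 and 5 above. Hist1h3f had 294, 289 and 377 CPM in S34F and 375, 406 and 405 CPM in WT, where S34F replicate 3 just reached the WT range (log2 fold change -0.31 ± 0.13, adjusted p 0.548). Hist1h3e, the H3 gene of highest CPM, had 326, 436 and 529 CPM in S34F and 537, 517 and 432 CPM in WT, with wide overlap (-0.20 ± 0.18). The 3 genes that edgeR called higher without WT replicate 1, chosen after their values were seen, had that library among the S34F values. Hist1h3d had 178, 151 and 211 CPM in S34F and 191, 102 and 102 CPM in WT, Hist1h3i had 216, 206 and 262 CPM in S34F and 259, 142 and 141 CPM in WT, and the H2a gene Hist1h2ak had 227, 163 and 286 CPM in S34F and 285, 108 and 120 CPM in WT. With all 6 libraries their adjusted p values were 0.593, 0.646 and 0.719.

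By position, the Hist1 genes fell into 2 large blocks of chromosome 13 and the single gene Hist1h2al. The 30 genes between chr13:23622919 and chr13:24026025 summed to 8992, 10246 and 11238 CPM in S34F and 11869, 11518 and 12225 CPM in WT, without overlap (log2 ratio -0.22). They include Hist1h4c, Hist1h4d, Hist1h4f and Hist1h4h, so position and class cannot be told apart in this sum. The 23 genes between chr13:21807632 and chr13:22135545 summed to 2759, 2924 and 3300 CPM in S34F and 3450, 2918 and 3132 CPM in WT, with overlap (log2 ratio -0.08). The 9 Hist2 genes at chr3:96023839-96082924 summed to 803, 814 and 898 CPM in S34F and 859, 961 and 972 CPM in WT (log2 ratio -0.15). The 3 Hist3 genes at chr11:58762413-58770176 summed to 20.04, 17.6 and 18.6 CPM in S34F and 8.30, 26.2 and 17.7 CPM in WT (log2 ratio 0.11). Both overlapped, and whether the blocks differ from each other was not tested.

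Histone genes are near-identical copies of each other, so a read often has more than one place to go. Of all 100-base windows of a member's exons, the share found once in the mm9 genome had a median of 63.8%, with class medians of 99.2% for H1, 51.8% for H2a, 61.7% for H2b, 52.1% for H3 and 66.6% for H4. At least 50% of windows were unique in 45 members, all were in 9, and none was in 5 (Hist1h2ao, Hist1h2ap, Hist1h2bq, Hist1h2br and Hist2h2aa2). Identical coding sequences were found in the pairs Hist1h2ao and Hist1h2ap, Hist1h2bq and Hist1h2br, and Hist1h4m and Hist1h4n. The sources used here do not say how the authors' counting treated reads with several places, so the values of such members are uncertain one by one. The second read of a pair can place a read that 1 window cannot.

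Level and uniqueness went together at the low end. The 5 members without a unique window lay between 0.34 and 10.2 CPM per kb of exon, the 17 others under 50% had a median of 212 CPM per kb, and the 45 at 50% or more had a median of 336 CPM per kb. Among the 45, 33 lay below 0 (median log2 fold change -0.16), and all 10 members with an unadjusted p under 0.05 were of these. Among the 22 under 50%, 16 lay below 0 (median -0.10). All 10 H4 genes at 50% or more lay below 0, with a median of -0.41. Hist1h4d, Hist2h4 and Hist4h4 were unique in every window, Hist1h4f in 81.9% and Hist1h4c in 65.9%.

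**Figure D4:**
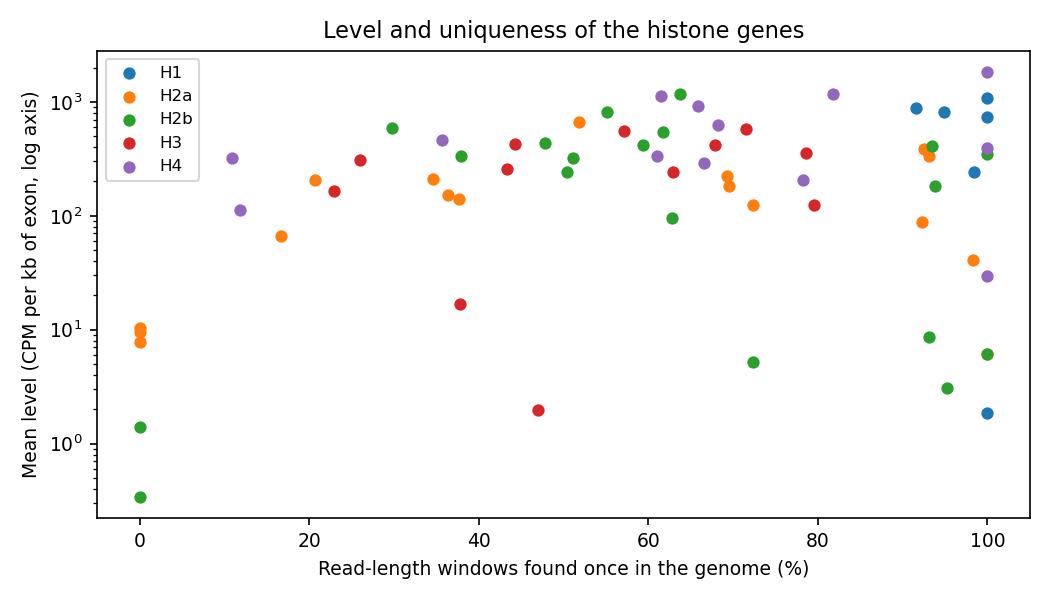
Share of 100-base exon windows found once in the genome (horizontal axis, %) and mean level over the 6 libraries (CPM per kb of exon, log axis) for the 67 histone genes, coloured by class. The 5 genes at 0% lie at or under 10.2 CPM per kb, and the H4 gene at the top right is Hist1h4d at 1830 CPM per kb.

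The pair Hist1h4m and Hist1h4n, chosen after its values were seen, was the H4 pair with identical coding sequences. Hist1h4m had 37.1, 57.1 and 7.21 CPM in S34F and 106, 62.0 and 2.36 CPM in WT, so that replicate 3 was low in both genotypes. Hist1h4n had 132, 145 and 166 CPM in S34F and 99.2, 131 and 151 CPM in WT. Of the windows of Hist1h4m, 88.1% also occur in Hist1h4n. Summed, the pair had 169, 203 and 173 CPM in S34F and 205, 193 and 153 CPM in WT, with overlap and a log2 ratio of -0.02.

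Spliced reads were listed for 4 histone genes, all of them H2b genes with an intron in the annotation, at 8 junctions, each with GT and AG at the intron's ends. In Hist1h2be, which overlaps Gm11398 on the same strand and reached 329, 509 and 423 CPM in S34F and 510, 486 and 426 CPM in WT (log2 fold change -0.17 ± 0.16), an intron at chr13:23677840-23712784 had 1220, 562 and 1369 reads in S34F and 898, 1030 and 3392 reads in WT. That equalled 2.38 to 7.09% of the gene's counts in S34F and 2.98 to 8.48% in WT. Hist1h2bc had 159, 177 and 198 CPM in S34F and 221, 139 and 181 CPM in WT (-0.02 ± 0.17), and its intron at chr13:23776491-23784044 had 295, 306 and 484 reads in S34F and 521, 645 and 809 reads in WT. That equalled 3.55, 3.73 and 4.85% of its counts in S34F and 4.28, 6.55 and 4.76% in WT, which overlap. No test is given for either junction in the authors' deposited table.

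Hist1h2bq and Hist1h2br mirror each other on opposite strands and share every window. Hist1h2bq was at 0.55, 0.80 and 0.99 CPM in S34F and 0.63, 0.73 and 0.84 CPM in WT (0.08 ± 0.33). Hist1h2br was at 2.07, 1.79 and 3.19 CPM in S34F and 3.21, 3.22 and 5.01 CPM in WT (-0.70 ± 0.31, adjusted p 0.552). Summed, the pair had 2.62, 2.59 and 4.18 CPM in S34F and 3.84, 3.95 and 5.85 CPM in WT, with overlap and a log2 ratio of -0.54. Junction reads of the 2 genes were nearly equal. As every window is shared, the same reads may be listed in both, so their junctions may not be separate observations. A 1153-base intron had 13, 15 and 15 reads in S34F and 15, 19 and 37 in WT in Hist1h2bq. Its mirror in Hist1h2br had 13, 18 and 16 in S34F and 15, 18 and 35 in WT. A 422-base intron had 16, 21 and 36 reads in S34F and 14, 0 and 28 in WT in Hist1h2bq. Its mirror had 17, 25 and 45 in S34F and 17, 0 and 31 in WT. A 1667-base intron had 0 to 13 reads per library in either gene. In the authors' deposited table, log2 fold changes for their 6 junctions ran from -1.15 (1153 bases) to 1.87 (422 bases), both in Hist1h2bq. Adjusted p values there ran from 0.646 to 0.994.

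Genes that make, process and use histone mRNA were read from lists of related genes in the same fit. In none of the 6 lists did edgeR (lowest adjusted p 0.538) or DESeq2 call a gene at adjusted p under 0.05. Over all genes tested, the background for these lists, 4.39% were higher and 4.7% lower at an unadjusted p under 0.05. All S34F values lay above all WT values in 7.16% of genes and below them in 8.47%. Of 16 genes of histone transcription, 11 lay above 0 with a median log2 fold change of 0.15. In this list 1 gene had an unadjusted p under 0.05 and was higher, and 3 had all S34F values above all WT values. Npat, the S-phase coactivator of histone genes, had 98.1, 85.8 and 88.1 CPM in S34F and 80.5, 62.1 and 59.8 CPM in WT (0.43 ± 0.14, unadjusted p 0.0142, adjusted p 0.538). Casp8ap2, a partner of Npat in histone locus bodies, had 184, 175 and 171 CPM in S34F and 158, 161 and 143 CPM in WT (0.20 ± 0.09). Ccne1, a cyclin that drives entry into S phase, had 19.0, 19.0 and 17.0 CPM in S34F and 16.7, 15.0 and 15.1 CPM in WT (0.24 ± 0.12). In these 3 genes every S34F value was above every WT value.

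Of 31 genes of histone mRNA 3′ end processing and decay, 17 lay above 0 and 14 below (median 0.07). At an unadjusted p under 0.05, 6 were higher (background 4.39%) and 3 lower (background 4.7%). Slbp itself had 205, 182 and 191 CPM in S34F and 179, 210 and 208 CPM in WT, with overlap (log2 fold change -0.05 ± 0.10). Snrpf, a core protein of small nuclear ribonucleoproteins that include the U7 particle, had 90.3, 84.4 and 100.0 CPM in S34F and 74.2, 42.1 and 48.4 CPM in WT (0.74 ± 0.21). Eri1, an exonuclease that binds the stem-loop, had 149, 136 and 138 CPM in S34F and 122, 104 and 96.2 CPM in WT (0.39 ± 0.11). Xrn2, a nuclear 5′ to 3′ exonuclease, had 227, 220 and 237 CPM in S34F and 260, 303 and 308 CPM in WT (-0.35 ± 0.10). Neither Snrpf and Eri1, which were higher in each S34F library than in any WT library, nor Xrn2, which was lower, passed the adjusted test.

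Of 22 histone chaperones and importers, 16 lay above 0 (median 0.13). At an unadjusted p under 0.05, 4 were higher (background 4.39%) and 0 lower (background 4.7%). Rbbp7, a histone-binding subunit of several chromatin complexes, had 349, 303 and 333 CPM in S34F and 291, 172 and 170 CPM in WT (0.64 ± 0.21). Asf1a, a chaperone of H3 and H4, had 60.7, 53.4 and 50.7 CPM in S34F and 47.6, 42.5 and 40.0 CPM in WT (0.34 ± 0.12), and the importer Ipo7 had 425, 319 and 346 CPM in S34F and 293, 296 and 267 CPM in WT (0.35 ± 0.13). All 3 had S34F values above the WT values, at adjusted p 0.538. Of 12 genes listed as replacement histones, 7 lay above 0 (median 0.03) with no unadjusted p under 0.05. H2afx, a gene of this list, also had the histone stem-loop after its stop codon. H2afv had 70.1, 72.7 and 76.4 CPM in S34F and 82.1, 82.6 and 84.6 CPM in WT (-0.18 ± 0.09). The centromeric H3 gene Cenpa had 64.0, 65.8 and 65.5 CPM in S34F and 67.9, 72.3 and 79.3 CPM in WT (-0.17 ± 0.10). These were the 2 genes of the list with S34F values below all WT values (background 8.47%). H3f3a, which encodes the replacement histone H3.3, overlapped between genotypes, with 530, 490 and 483 CPM in S34F and 492, 611 and 621 CPM in WT (-0.20 ± 0.12).

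As a reading of the cell cycle, 18 of 24 S-phase genes lay above 0 (median 0.09). At an unadjusted p under 0.05, 6 were higher (background 4.39%) and 0 lower (background 4.7%). All S34F values lay above all WT values in 8 of these genes (background 7.16%). Rfc3, a subunit of the clamp loader, had 64.7, 73.7 and 69.5 CPM in S34F and 56.1, 54.2 and 55.8 CPM in WT (0.32 ± 0.09). Tyms, thymidylate synthase, had 136, 155 and 145 CPM in S34F and 119, 119 and 119 CPM in WT (0.29 ± 0.09), and Dut, which breaks down dUTP, had 196, 184 and 176 CPM in S34F and 162, 92.7 and 97.2 CPM in WT (0.66 ± 0.21). All 3 were higher in every S34F library, at adjusted p 0.538. Of 19 genes of G2 and M phase, 10 lay above 0 (median 0.01). At an unadjusted p under 0.05, 2 were higher (background 4.39%) and 1 lower (background 4.7%). The kinetochore motor Cenpe (0.41 ± 0.13) and Hmmr, a spindle protein (0.32 ± 0.11), were higher in each S34F library than in any WT library, and the checkpoint kinase Bub1b (-0.34 ± 0.14) overlapped.

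**Figure D5:**
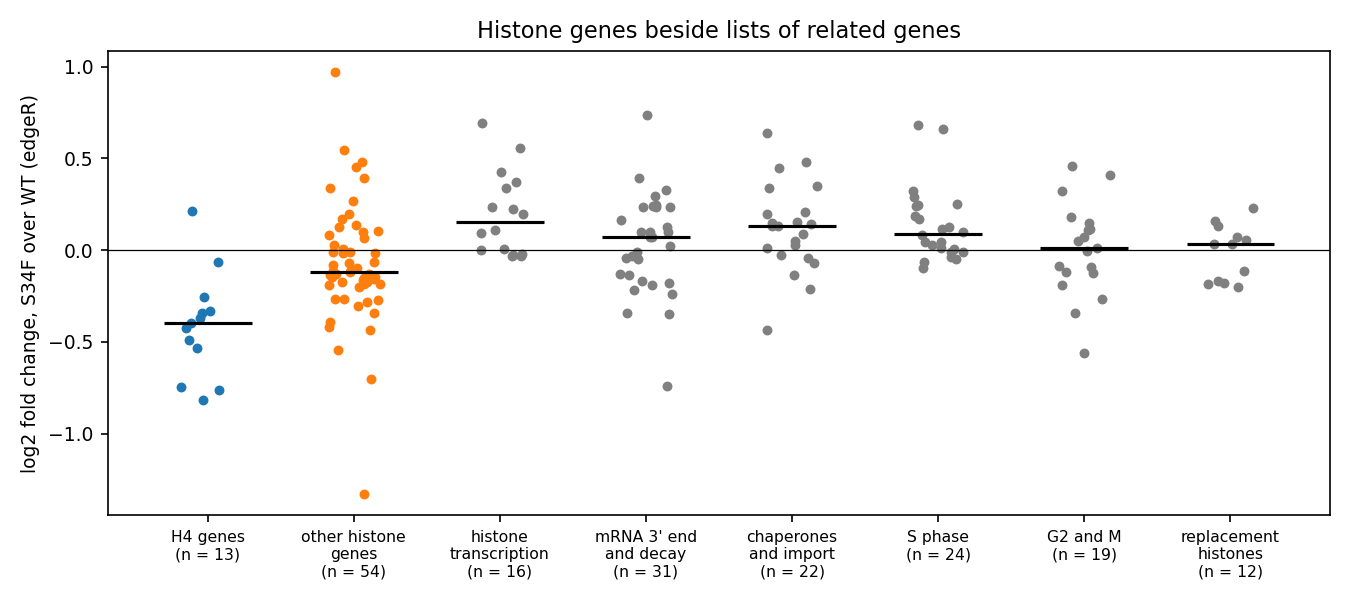
Log2 fold change (S34F over WT, edgeR) of the 13 H4 genes, the other 54 histone genes and the 6 lists of related genes; each point is a gene and each bar a median. Medians are -0.40 for H4 and -0.12 for other histone genes, and from 0.01 to 0.15 for the 6 lists.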

How the data were processed

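Whole-number counts per gene were deposited by the authors, with reads aligned to mm9 by TopHat 2.0.8, per the labels' design text. The submitters' processing notes also name Bowtie2 2.1.0, Cufflinks 2.1.1, SAMtools, HTSeq 0.5.4p1 and DESeq2 1.6.1. The authors' deposited table adds their own log2 fold changes and p-values, which are named where used, and junction read counts were deposited likewise. The libraries were made with a stranded kit, per the labels, but the strand and multiple-hit settings of the counting were not found there.

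edgeR 4.0.16 (TMM scaling, low-count filter by genotype, quasi-likelihood test, two-sided, Benjamini-Hochberg over all 13905 genes tested) compared 3 S34F with 3 WT libraries. DESeq2 1.42.0 was an alternative, and edgeR's code was tested on simulated data. CPM are counts per 1000000 of the scaled library size, per kb divided by exon length, and SE is the fold change over the root of F. Sums have no test, since 3 against 3 libraries cannot go below p = 0.1 in an exact permutation test and the members were known. Uniqueness used 100-base windows of the mm9 genome. Coding sequences, not proteins, were compared between copies. All 67 gene IDs matched the annotation.

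The members and lists were chosen with earlier results of these data known. Genes named were the 12 members of highest CPM, the member of lowest p per class, any called by a full fit, the highest of Hist2, Hist3 and Hist4, those with 10 or more junction reads, Npat, Slbp and the 3 of lowest p per list. Others are said to be chosen after their values were seen. Alternatives were other scalings, no filter, DESeq2, a replicate block and left-out libraries. The split of Hist1 into blocks, at gaps of over 1 Mb, was chosen after seeing the data. Replicates of 1 group differed by far more than sampling noise.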

Additional observations from a re-analysis of the deposited data

How the results depend on the processing

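The summed levels of all members, of the H1, H2b and H4 classes and of Hist1, Hist2 and Hist4 kept their sign under other size factors, library totals, mitochondrial genes and 7SK left out, each library left out, both replicate 1 libraries left out and members with at least 50% unique windows only. H2a, H3 and Hist3 sums, which overlapped between genotypes, changed sign with single libraries left out, with ranges of -0.19 to 0.05, -0.27 to 0.01 and -0.23 to 0.53. The count of calls, 0 by edgeR, was 1 by DESeq2, from 0 to 6 when 1 library was left out and 3 without both replicate 1 libraries. Without those 2 libraries the count of members below 0 was 31 (49 with all libraries, 40 to 55 with 1 left out), and the median log2 fold change was 0.0087, against -0.14 (-0.23 to -0.04 with 1 left out).

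Replicate numbers paired the libraries only in part. Same-numbered deviations correlated at 0.21, 0.27 and 0.02 for replicates 1, 2 and 3, and other pairs from -0.29 to 0.08. Replicates 1 and 2 thus correlated above every other pair, while S34F replicate 3 was closest to WT replicate 1. The main test used no replicate block. With the replicate block the members' median was -0.13, 46 lay below 0, and 5 of 13905 genes were called (0.036%), none of them a histone gene. Hist1h2bc (log2 fold change -0.02) turned to 0.0035 there, ranged from -0.17 to 0.16 with 1 library left out, and stood at 0.23 without both replicate 1 libraries, where Hist1h2be and Hist1h3e also turned, to 0.032 and 0.024. Hist1h2bg ranged from -0.025 to 0.11 and Hist1h2bq from -0.13 to 0.28 with 1 library left out. The cause was not tested in any of these.

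The main limits are 3 libraries per genotype, deeper WT libraries, replicate 1 libraries that alone read as male, and copies that share reads.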
